A study of Mus musculus with 15 samples.

Results

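Severe and mild early-life stress were compared on postnatal day 9 in male C57BL/6 mice, with morphine-treated and vehicle-treated pups averaged; the tissue was the right hippocampus. The members are arrays, picked by the treatment given for each: 12 of the 15 arrays of the series, 6 after severe and 6 after mild stress. Pups of the severe arm received the saline vehicle (SSS, 3 arrays) or the opioid morphine (SSM, 3 arrays), and those of the mild arm likewise received saline (MSS, 3 arrays) or morphine (MSM, 3 arrays). The other 3 arrays came from untreated controls (CC), which had neither a stressor nor an injection listed, so they differ from every treated group in both. Treatment ran from postnatal day 5 to day 9 with birth as day 1, and litters were reduced to no more than 7 pups per dam. What the stress consisted of, the dose of morphine and the litter of each pup are not stated in the labels. P-values therefore measure the spread between these arrays.

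The contrast is the mean of SSS minus MSS and SSM minus MSM, so a positive value means a higher level after severe stress. Levels are log2 intensities (RMA) from Affymetrix Mouse Gene 1.0 ST arrays, whose probes lie along the exons of each gene, and a difference is the log2 change between means, given with its standard error (SE) from limma. Each of 19938 genes was represented by its brightest probe set, and p-values were adjusted over all of them by the Benjamini-Hochberg method. Arrays are named by group and a number, such as SSM3, and the number carries no order.

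The hippocampus encodes memory and, through its glucocorticoid and mineralocorticoid receptors, takes part in ending the hormonal response to stress. In the first postnatal days of rodents the adrenal response to stress is muted, while neurons of the dentate gyrus are still being born. Stress of a cell also acts on RNA processing: the CLK kinases phosphorylate serine- and arginine-rich (SR) splicing factors, and many transcripts of this machinery carry introns that can hold them in the nucleus.

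Some arrays stood apart before any comparison was made. The genes of SSM3 lay a median of 0.15 above their mean over the 15 arrays, against -0.0205 to -0.0031 for the other 14. Markers of the thalamus, which borders the hippocampus, averaged 7.80 on MSM3 and 6.64 to 6.94 on the other 5 mild arrays. Markers of the striatum averaged 8.66 on SSM1 and 6.40 to 6.66 on the other 5 severe arrays. They averaged 7.67 on CC1 against 6.47 and 6.51 on CC2 and CC3, and 7.21 on MSM2. The choroid plexus gene Ttr was at 8.87 to 9.17 on MSS1, MSS2 and SSS2 and at 12.65 to 13.24 on the other 12 arrays. Hippocampal neuron markers were present on all 15 arrays, with Prox1, a transcription factor of dentate granule neurons, at 7.81 to 9.10 (lowest on SSM1) and Slc17a7, the vesicular glutamate transporter of excitatory neurons, at 10.21 to 11.39 (lowest on MSM3). Titles of the samples also carry an SS number that is not explained. It is 11 on every mild array, 8, 9 or 10 on severe arrays and 12 on CC arrays, so stress level and SS number cannot be told apart.

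Of the 19938 genes, 2 passed an adjusted p of 0.05, which is 0.01% of those tested. Kbtbd7, an adaptor that brings substrates to the cullin 3 ubiquitin ligase, rose, and the microRNA gene Mir380 fell. At an adjusted p of 0.1, 24 genes were higher (0.12%) and 34 lower (0.171%). These counts depended strongly on the setting: they were 652 and 105 with each array centred and 67 and 111 after quantile normalization. They were 0 and 1 with the 12 stressed arrays only, with the SS number as a random effect, and without MSS1, MSS2, MSS3 or MSM2, and 3 and 8 without SSM3. In 219 genes the 6 severe arrays did not overlap the 6 mild arrays (1.1%), 137 of them higher (0.687%) and 82 lower (0.411%). The balance moved too, to 468 higher and 29 lower with each array centred, 370 and 117 without SSM1 and MSM3, and 137 and 127 without SSM3. Most differences were small and positive: 70.3% of genes were higher after severe stress, with a median of 0.035. Without SSM3 that median was 0.0076. At an unadjusted p of 0.05, 1851 genes were higher (9.28%) and 559 lower (2.8%). With each array centred on its own median the higher share of these went from 76.8% to 92.5%, and without SSM3 it went to 56.1%.

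Kbtbd7 was at 7.51, 7.48 and 7.51 in MSS and at 7.42, 7.41 and 7.34 in MSM. After severe stress it was at 7.70, 7.65 and 7.67 in SSS and at 7.80, 7.70 and 7.71 in SSM. Every severe array lay above every mild one. The averaged difference was 0.26 (SE 0.037, 1.20-fold, limma adjusted p = 0.0467). It was 0.17 with saline and 0.35 with morphine, and the limma test of the drugs against each other gave an adjusted p of 0.959. That is the smallest adjusted p of any gene in that test, so it does not show that the differences are equal. The untreated arrays were at 7.62, 7.67 and 7.71, all above the mild arrays, with CC2 and CC3 inside the severe range and CC1 just under it. Its neighbouring paralog Kbtbd6, an adaptor of the same ligase, differed by 0.07 (SE 0.073, adjusted p = 0.727). The call for Kbtbd7 held in 2 of the 15 fits that leave out 1 array (without SSS3 or SSM3), with adjusted p-values of 0.0254 to 0.172 and differences of 0.24 to 0.27. It was also lost without SSM1 and MSM3 together (0.23, adjusted p = 0.112), with the 12 stressed arrays only (adjusted p = 0.11) and with the SS number as a random effect (adjusted p = 0.163).

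Mir380 lies in the imprinted Dlk1 to Dio3 domain of chromosome 12, where the RNAs Meg3 and Rian and a large array of microRNAs are made from the maternal chromosome and Dlk1, Rtl1 and Dio3 from the paternal one. Its hairpin is shown because it is the only lower gene past the threshold, at chr12:109711803-109711863 on the plus strand (GRCm38.p6, RefSeq), with both mature arms in capitals. The mature arms of Mir380 and of the next 3 microRNA genes of the domain by p-value follow, 5' to 3', with the seed (bases 2 to 8) in capitals.
Mir380 hairpin: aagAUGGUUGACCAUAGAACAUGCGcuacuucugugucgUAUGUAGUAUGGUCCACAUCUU
miR-380-5p: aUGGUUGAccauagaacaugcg
miR-380-3p: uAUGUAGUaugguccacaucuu
miR-679-5p: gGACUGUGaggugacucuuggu
miR-679-3p: aGCAAGGUccuccucacaguag
miR-127-5p: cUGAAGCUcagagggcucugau
miR-127-3p: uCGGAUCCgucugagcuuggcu
miR-543-5p: aAGUUGCCcgcguguuuuucg
miR-543-3p: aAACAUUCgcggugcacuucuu
No seed is shared among these 8 arms. All 40 measured microRNA genes of the domain matched a RefSeq entry, with 76 mature arms and 74 different seeds. The shared seeds join miR-379-3p with miR-411-3p and miR-376b-5p with miR-376c-5p. A probe set of such an array does not separate a mature microRNA from its hairpin or from the longer transcript around it, so the values are those of the gene.

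Mir380 was at 5.64, 5.78 and 5.32 in MSS and at 5.41, 5.44 and 5.58 in MSM. It was at 4.49, 4.84 and 4.86 in SSS and at 4.39, 4.65 and 4.65 in SSM. The 2 sets of 6 arrays did not overlap, and the difference was -0.85 with saline and -0.92 with morphine. The averaged difference was -0.88 (SE 0.0998, 1.84-fold lower, limma adjusted p = 0.00597). CC arrays were at 5.21, 4.75 and 5.20, with CC2 inside the severe range and the other 2 between both sets. The call held in every alternative fit in which Mir380 was tested except quantile normalization without SSM1 and MSM3, where its adjusted p was 0.0566.

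Most of the Dlk1 to Dio3 domain lay the same way. The counts given here include Mir380 itself. The list of genes of the domain, like the other gene lists, was chosen with earlier results of these data known. Shares of all genes set beside the counts of a list are therefore descriptions and not a test. Of the 45 measured genes of the domain 38 were lower after severe stress, with a median difference of -0.25 against 0.035 over all genes. In 8 the severe arrays lay below all mild arrays (0.411% of all genes did). At an unadjusted p of 0.05, 29 were lower and 0 higher, against 2.8% and 9.28% of all genes. Among its microRNA genes 35 of 40 were lower (median -0.25), whereas 128 of 260 microRNA genes elsewhere were lower (median 0.0018). At an unadjusted p of 0.05, 24 of those 260 were lower and 6 higher, so small RNA genes outside the domain also leaned lower. Of 51 small nucleolar RNA genes 33 were lower (median -0.054), 15 of them at that level, where 2 were higher. Mir679 differed by -0.83 (SE 0.133, adjusted p = 0.063), Mir543 by -0.43 (SE 0.088, adjusted p = 0.0919) and Mir127 by -0.32 (SE 0.063, adjusted p = 0.0919). Mir127 and Mir543 did not overlap between severe and mild arrays, and Mir679 did.

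The host RNAs of the domain were among the largest differences. Meg3, a long noncoding RNA expressed from the maternal allele, had a lowest, median and highest mild level of 11.93, 12.08 and 12.18, and severe levels of 10.92, 11.40 and 11.91. The ranges did not overlap, but SSS3, the highest severe array, lay just under the lowest mild one. Its difference was -0.60 (SE 0.135, adjusted p = 0.115). Rian, which hosts a group of small nucleolar RNAs, differed by -0.68 (SE 0.143, adjusted p = 0.0983) with some overlap. The genes expressed from the paternal allele were not uniform: Rtl1 differed by -0.19 (SE 0.0634), Dlk1, a Notch-like growth regulator, by 0.11 (SE 0.101), and Dio3, which inactivates thyroid hormone, by 0.19 (SE 0.0943). These 3 were taken as the domain's genes of the paternal allele, not by p-value.

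Position within the domain was compared for the 39 microRNA genes with a hairpin in the table. They fall into 2 blocks with 90.7 kb between them, 10 genes over 46.3 kb and 29 genes over 34.4 kb. In the first block all 10 were lower, from -0.60 to -0.032 with a median of -0.22. In the second block 24 of 29 were lower, from -0.88 to 0.025 with a median of -0.29. Neighbours differed widely, as the plot of the microRNA genes in chromosome order shows. Mir380 lies between Mir299a (0.0026) and Mir323 (-0.34), and Mir679 between Mir494 (-0.044) and Mir666 (-0.13), which has mature arms but no hairpin in the table and is not in the plot. These neighbours were taken for their place.

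**Figure D1:**
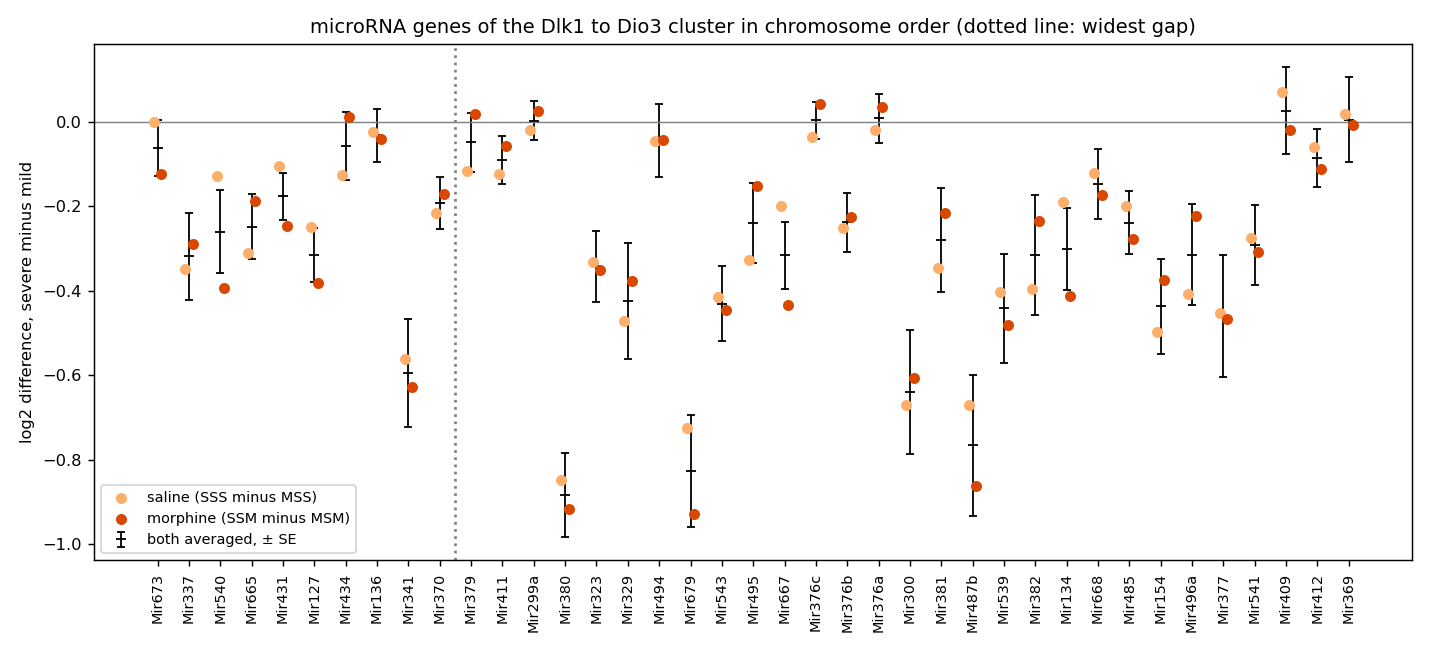
Log2 difference between severe and mild stress (y axis) for 39 microRNA genes of the Dlk1 to Dio3 domain in chromosome order (x axis), with saline and morphine pups as light and dark points and the averaged difference ± SE in black. Of the averaged differences 34 lie below 0, lowest for Mir380 at -0.88, and the dotted line marks the gap of 90.7 kb.

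Regulators of splicing formed the other large lower set. In a list of splicing kinases and SR-type regulators 29 of 36 measured genes were lower after severe stress (median -0.14 against 0.035 over all genes), 22 of them at an unadjusted p of 0.05, where 2.8% of all genes were lower. In 12 of the 36 the severe arrays lay below all mild arrays (0.411% of all genes), and 7 reached an adjusted p of 0.1 (0.171% of all genes were lower at that level). None passed 0.05. The median was -0.13 with saline and -0.14 with morphine. It was -0.12 without SSM1 and MSM3, -0.16 without SSM3 and -0.17 after quantile normalization. The splicing list was also chosen with earlier results of these data known. Its counts beside the shares of all genes are therefore no test of the list.

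Clk1, a kinase that phosphorylates SR proteins, had mild levels of 9.53, 9.61 and 9.84 (lowest, median, highest) and severe levels of 8.68, 9.04 and 9.38. No severe array reached the mild range, with SSS1 lowest and SSS3 nearest to it. The difference was -0.59 (SE 0.101, 1.51-fold lower, adjusted p = 0.063). Its paralog Clk4 differed by -0.45 (SE 0.0818, adjusted p = 0.0832), with severe levels of 7.51 to 8.03 and mild levels of 8.12 to 8.40, which do not overlap. Arglu1, an SR-type protein rich in arginine and glutamate, differed by -0.35 (SE 0.0606, adjusted p = 0.063), again with no overlap. Tra2a, a splicing activator, differed by -0.56 (SE 0.104, adjusted p = 0.0832) and Son, a scaffold of nuclear speckles, by -0.25 (SE 0.0465, adjusted p = 0.0832). Pnisr, an SR-related protein, differed by -0.55 (SE 0.1, adjusted p = 0.0832), and its highest severe array, 9.097 on SSS3, overlapped the lowest mild one, 9.080. These are values of genes that missed 0.05 in the fit described above. Clk1, Clk4, Arglu1 and Son passed it after quantile normalization, and Clk1, Clk4, Arglu1, Tra2a and Pnisr passed it without SSS3.

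The other lower genes with the smallest p-values follow. Akap8, which anchors protein kinase A in the nucleus, and its paralog Akap8l differed by -0.33 (SE 0.0574) and -0.28 (SE 0.0497). Snrnp70, the 70K protein of the U1 splicing particle, differed by -0.29 (SE 0.0563), from a mild median of 9.23 to a severe median of 8.94, and Thoc2l, related to the THO complex of mRNA export, by -0.25 (SE 0.0484). Eml5, a microtubule-associated protein, differed by -0.44 (SE 0.0745, adjusted p = 0.063), and a further probe set of Eml5 differed by -0.51 (SE 0.0692). Ankrd16, Tbrg3, Paxbp1 and Sfi1, a centrosomal protein, complete the 15 with differences of -0.29, -0.36, -0.39 and -0.33. Adjusted p-values of the 15 ran from 0.063 to 0.0832. Pnisr, Sfi1 and Thoc2l overlapped between severe and mild arrays, and the other 12 did not.

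The core spliceosome did not share this direction. Of its 42 measured genes 33 were higher, with a median of 0.054, close to the 0.035 over all genes. Snrnp70 and Sf3b1, a branch-point recognition factor (-0.15, SE 0.037), lay lower with no overlap, whereas Lsm4 (0.19, SE 0.052) and Sf3a2 (0.15, SE 0.049) were higher.

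Of the list of nuclear long RNAs 8 were measured. Of these 5 were lower, each at an unadjusted p of 0.05 (2.8% of all genes were), with a median of -0.37 for the list, and 3 did not overlap (0.411% of all genes lay lower without overlap). Malat1, a nuclear speckle RNA, had mild levels of 11.25, 11.27 and 11.48 (lowest, median, highest) and severe levels of 9.83, 10.62 and 11.21. The severe arrays spread widely, and SSS3, the highest, lay just under the mild range. The difference was -0.70 (SE 0.172, 1.63-fold lower, adjusted p = 0.132). Snhg11, a host RNA of small nucleolar RNAs, differed by -0.65 (SE 0.134, adjusted p = 0.0919), with severe levels of 7.98 to 8.80 and mild levels of 8.82 to 9.32. Leng8, which is counted in neither list, differed by -0.64 (SE 0.137, adjusted p = 0.104). Rian and Meg3 belong both here and to the Dlk1 to Dio3 list, so these lists are not separate evidence. The list of nuclear long RNAs too was chosen with earlier results known, so its counts beside all genes only describe it. Dleu2, Tug1 and Pvt1 differed by 0.038 to 0.06.

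SSS1 was the lowest array for each of these sets: the splicing list averaged 8.84 there, and 8.99 and 9.09 on SSS2 and SSS3. Mild arrays averaged 9.11 to 9.21, severe arrays 8.84 to 9.09 and CC arrays 9.06 to 9.17. Without SSS1 the median difference of the list was -0.11, that of the nuclear RNAs -0.28 and that of the Dlk1 to Dio3 genes -0.19. By SS number, the splicing list lay 0.11 below the mild mean for number 8, 0.18 below for number 9 and 0.23 below for number 10. All 3 were set against the same mild arrays, which share 1 SS number, so their common side cannot separate stress level from SS number.

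**Figure D2:**
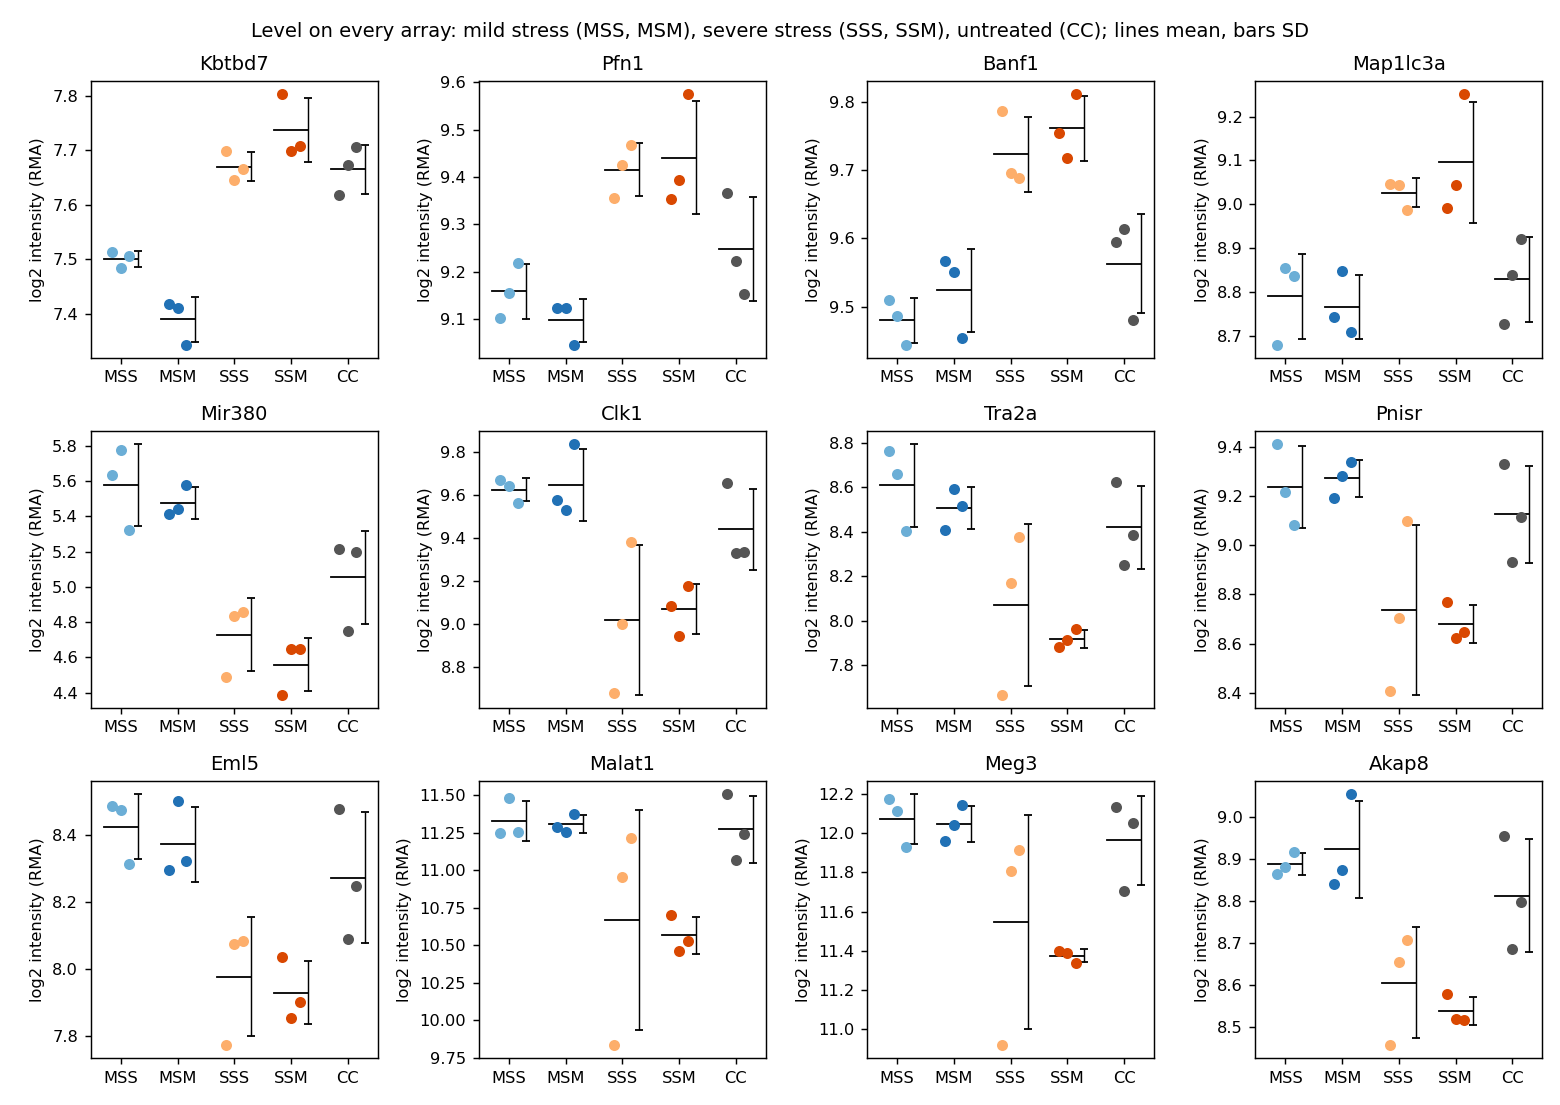
Log2 intensity (RMA) of 12 named genes on every array, by group (x axis: MSS, MSM, SSS, SSM, CC), with group means and SD (n = 3). The severe groups lie above the mild ones for the 4 genes of the top row and below them for the other 8, with wide spread in SSS for Clk1, Malat1 and Meg3.

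Chromatin modifiers and Mediator subunits were divided. Of 78 measured genes 37 were higher and 41 lower (median -0.0016). Med12, a subunit of the Mediator kinase module (-0.30, SE 0.063, adjusted p = 0.0919), the remodeller Chd9 (-0.19, SE 0.042), the histone methyltransferase Kmt2b (-0.21, SE 0.051) and Baz2a of the nucleolar remodelling complex (-0.20, SE 0.049) had severe arrays below all mild ones. These 4 of 78 compare with 0.411% of all genes, and 0 of 78 lay above all mild arrays. This list was also chosen with earlier results known, so the comparison is a description.

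Higher genes were smaller in difference than lower ones. Among the 137 higher genes without overlap the median was 0.17, and among the 82 lower ones it was -0.28. Of the lower ones 8 were microRNA genes and 65 protein-coding, and of the higher ones 1 and 135. Among all 19938 genes these classes held 300 and 18556. The median gene length was 16049 bases for the higher and 22778.5 bases for the lower ones, against 17737.5 bases over all genes. In 5 equal bins of gene length 65.1% to 72.2% of genes were higher, the least among the longest. In 5 equal bins of brightness 60.5% to 79.7% were higher, the most among the brightest, next among the dimmest (77.9%) and the least in the middle bin.

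The actin list was the most even of the higher ones. All 24 measured genes of actin monomer handling and the Arp2/3 complex were higher (median 0.097 against 0.035), and 11 were so at an unadjusted p of 0.05, where 9.28% of all genes were higher. After quantile normalization the median was 0.053, and it was 0.088 without SSM3. The actin list was chosen with earlier results known, so its counts beside all genes are a description and not a test. Pfn1, the actin monomer binding protein profilin 1, had mild levels of 9.05, 9.12 and 9.22 and severe levels of 9.35, 9.41 and 9.58 (lowest, median, highest). It did not overlap between them, and its difference was 0.30 (SE 0.0505, 1.23-fold, adjusted p = 0.063). Dstn, which severs actin filaments, differed by 0.19 (SE 0.058), Arpc1a, a subunit of Arp2/3, by 0.12 (SE 0.042), and the capping protein Capza2 by 0.12 (SE 0.045).

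The other higher genes with the smallest p-values have varied roles. Map1lc3a, the autophagosome protein LC3A, differed by 0.28 (SE 0.0546, adjusted p = 0.0832), with mild levels of 8.68 to 8.86 and severe levels of 8.99 to 9.25. Tex264, a receptor for autophagy of the endoplasmic reticulum, differed by 0.27 (SE 0.0513), Stard3, a cholesterol-binding protein of late endosomes, by 0.22 (SE 0.0441), and Caly, a vesicle protein of neurons, by 0.21 (SE 0.0398). Rnpep, an aminopeptidase, differed by 0.34 (SE 0.0569, adjusted p = 0.063). Banf1, which bridges DNA at the nuclear envelope, differed by 0.24 (SE 0.0408, adjusted p = 0.063), nearly the same with saline and morphine. Mpped2 (0.40, SE 0.0816), Stard3, Gstm1 and Dbp overlapped between severe and mild arrays, and the other 11 of the 15 did not. Gstm1, a glutathione transferase, Mllt1, a chromatin reader, Msl3l2 and Pcnx4 differed by 0.24, 0.24, 0.22 and 0.22. The largest differences without overlap also include Kcng1, a potassium channel subunit (0.37, SE 0.115), Crip2 (0.31, SE 0.0659) and Ctxn1 (0.30, SE 0.102) among higher genes and the amylase gene Amy1 (-0.58, SE 0.16) among lower ones. Each of these 4 had MSM3 far from the other 5 mild arrays, and without MSM3 their differences were 0.23, 0.25, 0.17 and -0.44.

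Energy and protein turnover genes were mostly higher by small amounts. In oxidative phosphorylation 66 of 73 were higher (median 0.069) and 16 at an unadjusted p of 0.05, where 9.28% of all genes were higher, led by Ndufb5, a subunit of complex I (0.18, SE 0.045, adjusted p = 0.146). In the mitochondrial ribosome 69 of 75 were higher (median 0.081), led by Mrps30 (0.30, SE 0.0581, adjusted p = 0.0836) and Mrpl34 (0.23, SE 0.057), both without overlap. In the proteasome 43 of 44 were higher (median 0.065), led by the assembly chaperone Psmd5 (0.22, SE 0.06). In cullin ligases and BTB adaptors 32 of 42 were higher (median 0.059), with Kbtbd7 the only called member, Nedd8, the modifier that activates cullins, at 0.16 (SE 0.044) and Kbtbd4 at 0.18 (SE 0.049). The direction of these lists, which were also chosen with earlier results known, is that of most genes. After quantile normalization, where the median over all genes was 0.026, their medians were 0.024, 0.058, 0.024 and 0.032, and without SSM3 they were 0.048, 0.057, 0.048 and 0.041. The oxidative phosphorylation list averaged 9.73 on SSM3 and 9.51 to 9.64 on the other 5 severe arrays. By SS number, the means of these lists lay 0.051 to 0.068 above the mild mean for number 8 and 0.11 to 0.17 for number 9. For number 10 they lay 0.0023, 0.0079, 0.0081 and 0.0024 above it, whereas the actin list lay 0.065 above it. Number 9 holds morphine arrays only and number 10 saline arrays only.

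**Figure D3:**
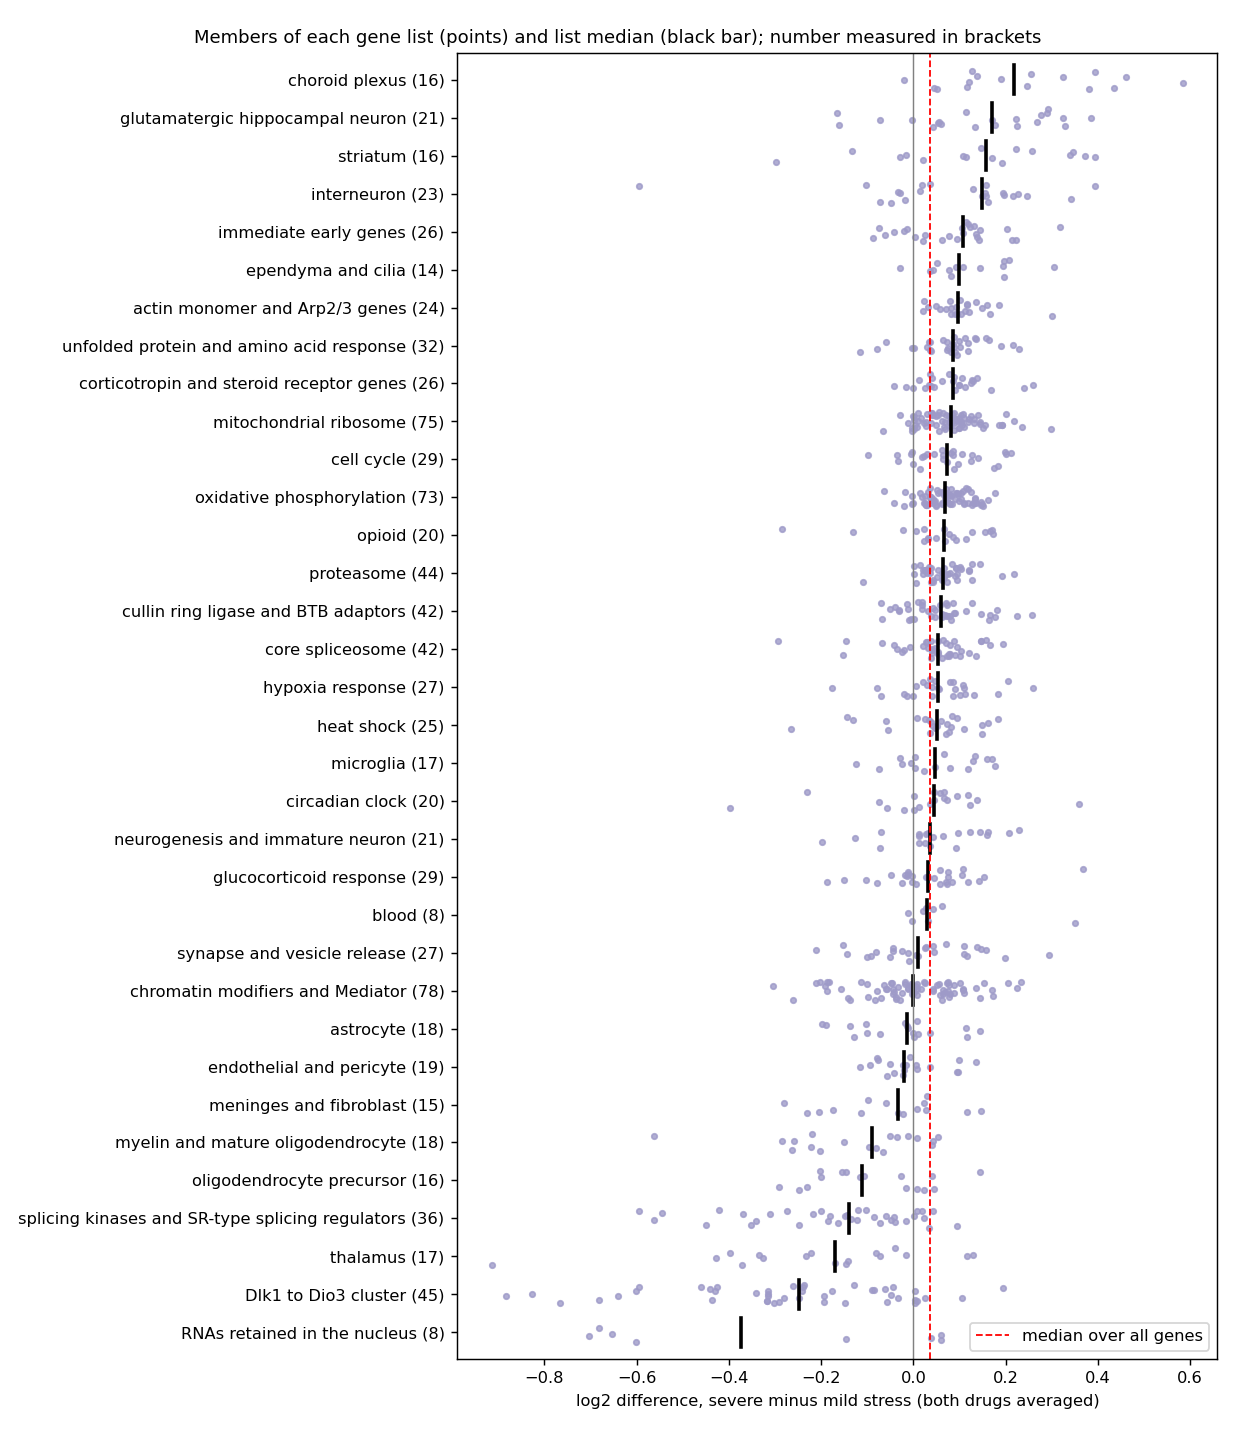
Log2 difference between severe and mild stress (x axis) for the members of 34 gene lists (points), with the list median as a black bar and the median over all genes as a dashed line. The nuclear RNAs, the Dlk1 to Dio3 genes, the thalamus markers and the splicing regulators have the lowest medians, from -0.37 to -0.14.

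None of the stress axis lists had a member past the threshold. Over all genes 70.3% were higher, with a median of 0.035. Nr3c1, the glucocorticoid receptor, was at 7.81 ± 0.0537 (SD, n = 6) in mild and 7.83 ± 0.0829 (SD, n = 6) in severe arrays, a difference of 0.025 (SE 0.042, adjusted p = 0.841). The mineralocorticoid receptor Nr3c2 differed by 0.26 (SE 0.24) and the peptide gene Crh by 0.076 (SE 0.0738). Fkbp5, a chaperone induced by glucocorticoids, differed by 0.11 (SE 0.0478, adjusted p = 0.395). Of the glucocorticoid response list 17 of 29 were higher (median 0.032, and 0.0077 without SSS1, 0.0082 without SSM3 and 0.057 without SSM1), with Mt1, a metallothionein, at 0.15 (SE 0.059). In that list 3 genes were higher and 1 lower at an unadjusted p of 0.05, where 9.28% and 2.8% of all genes were. Sult1a1 was lower, by -0.19 to -0.11 over the fits that leave out 1 array. Of the corticotropin and steroid receptor list 23 of 26 were higher (median 0.086), with the co-chaperones Fkbp4 and Bag1 at 0.13 (SE 0.043) and 0.14 (SE 0.051). This median was 0.033 without SSM3 and 0.05 without MSM3.

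Lists of cellular stress and activity had no called member either. Their counts stand beside 70.3% of all genes higher, with a median of 0.035, and several lie near that share. Immediate early genes were higher in 20 of 26 (median 0.11, and 0.036 without MSM3), with the transcription factor Egr3 at 0.21 (SE 0.093). The unfolded protein and amino acid response was higher in 28 of 32 (median 0.087), with Dnajb9, an endoplasmic reticulum co-chaperone, at 0.23 (SE 0.07) and Phgdh, of serine synthesis, at 0.22 (SE 0.07). Heat shock genes were higher in 20 of 25 (median 0.051), although Dnajb6 was lower (-0.27, SE 0.076). Hypoxia genes were higher in 21 of 27 (median 0.052, and 0.031 without SSM3 and 0.081 without SSM1), although Vegfa, the vascular growth factor, was lower (-0.18, SE 0.057). Clock genes were higher in 15 of 20 (median 0.044). Dbp, a transcription factor driven by the clock, had a median of 7.91 in mild and 8.24 in severe arrays and differed by 0.36 (SE 0.0647, adjusted p = 0.082), and Per1 by 0.12 (SE 0.049). The labels do not state the time of day of collection. Opioid genes were higher in 17 of 20 (median 0.067), and their median was 0.0137 without SSM1, which stands apart for this list. It was -0.0055 after quantile normalization without SSM1 and MSM3. The peptide gene Npff (-0.29, SE 0.065, adjusted p = 0.115) and the G protein gene Gnaz (0.16, SE 0.044) did not overlap between severe and mild arrays, while the receptor Oprm1 differed by 0.023 (SE 0.0489). The cell cycle list had 23 of 29 genes higher (median 0.072, and 0.0385 without SSM1), with Mcm2 of the replication helicase at 0.20 (SE 0.051), and the neurogenesis list had 17 of 21 higher (median 0.035). Leaving out 1 array moved the neurogenesis median between 0.0178 (MSM3) and 0.107 (SSM1), with 0.022 without SSM3 and 0.053 to 0.068 without MSM1, MSS3 or SSS3.

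Cell type markers bear on these values, since in whole tissue fewer cells of a type and less RNA per cell cannot be told apart. Hippocampal glutamatergic markers had a median of 0.17 (17 of 21 higher, where 70.3% of all genes were). This median was -0.0065 without MSM3, 0.1 without SSM3 and 0.27 without MSM1. Interneuron markers had a median of 0.15 (16 of 23 higher), with Lhx6, a factor of their development, at 0.20 (SE 0.069), and the median was 0.061 without SSM1. Synaptic genes were at 0.0096 (15 of 27 higher), with Syt5, a vesicle calcium sensor, at 0.29 (SE 0.062, adjusted p = 0.0983) and the active zone scaffold Pclo at -0.21 (SE 0.08). Astrocyte, endothelial and microglia markers were at -0.013, -0.021 and 0.046, with 7 of 18, 7 of 19 and 12 of 17 higher. Among microglia markers 4 were higher and 0 lower at an unadjusted p of 0.05, where 9.28% and 2.8% of all genes were. The 4 were Fcer1g (0.18, SE 0.059), Fcrls (0.13, SE 0.05) and the complement genes C1qb (0.17, SE 0.071) and C1qc (0.16, SE 0.071). Siglech was at -0.12 and Trem2 at -0.074. C1qb differed by 0.0031 with saline and 0.34 with morphine (limma p of the drugs against each other 0.0324, adjusted 0.959, the smallest adjusted value of any gene). The microglia median was -0.0074 without SSM1, 0.023 without MSM1 and 0.087 without SSM2. The synaptic median changed sign without SSM2 (-0.0086) and the endothelial one without SSM1 (0.0126) or MSS1 (0.0054), and the astrocyte median ran from -0.062 without MSM2 to -0.00084 without SSM3. Oligodendrocyte precursor and myelin markers were at -0.11 and -0.089, with 11 of 16 and 14 of 18 lower, and at 0.013 and -0.028 without MSM3. The myelin median was -0.23 without SSM1, which stands apart for it, and the precursor median reached -0.15 without MSM2.

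Markers of bordering tissue varied by array, and their counts stand beside 70.3% of all genes higher. Thalamus markers were lower in 15 of 17 (median -0.17), averaging 6.64 to 7.80 on mild and 6.65 to 6.83 on severe arrays. Their median was -0.028 without MSM3 and -0.011 without SSM1 and MSM3. Striatum markers were higher in 12 of 16 (median 0.16), averaging 6.37 to 7.21 on mild and 6.40 to 8.66 on severe arrays, and the median was -0.16 without SSM1 and 0.37 without SSM2. Choroid plexus markers were higher in 15 of 16 (median 0.22), averaging 5.61 to 7.21 on mild and 5.59 to 7.43 on severe arrays, and the median was 0.022 without SSS3 and 0.42 without SSS2. Meningeal, ependymal and blood markers had medians of -0.033, 0.1 and 0.03, and blood had 8 measured. These medians moved with single arrays: the meningeal median ran from -0.12 (SSM3) to 0.052 (SSM1), the ependymal one was 0.0196 without SSM1, and the blood one was -0.0035 without SSM3. Without SSM1 and MSM3 the medians of the splicing, nuclear RNA and Dlk1 to Dio3 lists were -0.12, -0.33 and -0.22, the difference of Mir380 was -0.81 (adjusted p = 0.0234) and that of Pfn1 0.31.

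**Figure D4:**
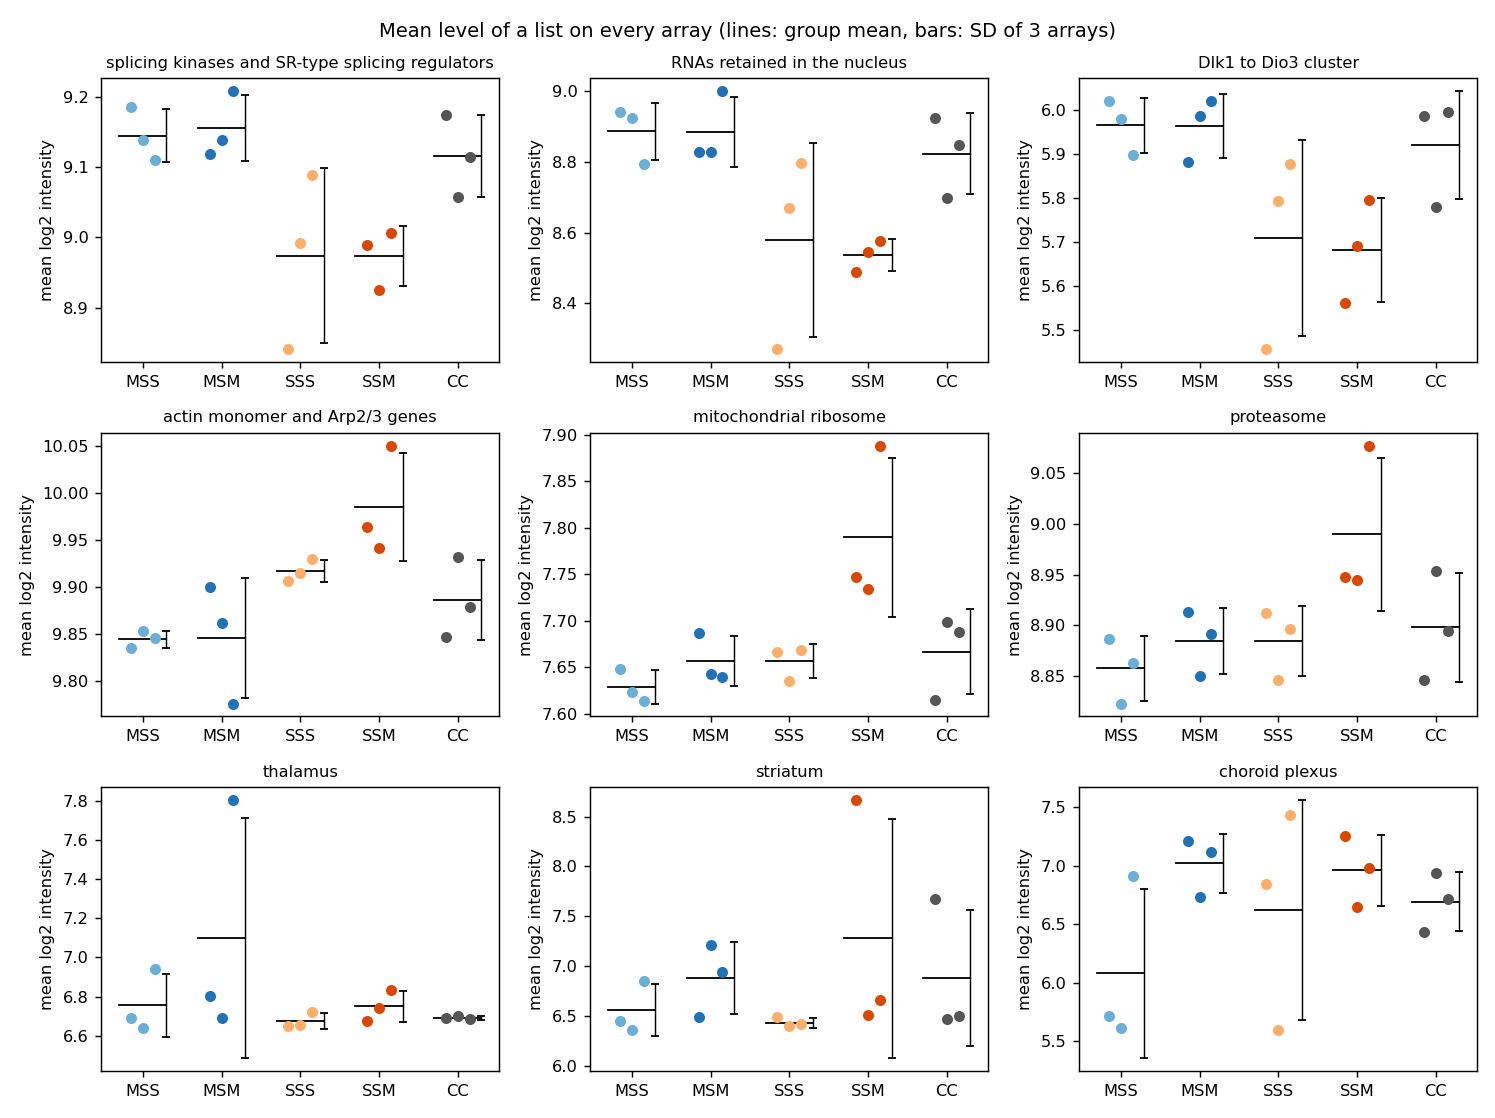
Mean log2 intensity of 9 gene lists on every array, by group, with group means and SD (n = 3). The 6 severe arrays lie below the 6 mild ones for the splicing regulators and the Dlk1 to Dio3 genes, SSM3 is the highest array for the mitochondrial ribosome and the proteasome, and MSM3 and SSM1 stand apart for the thalamus and striatum markers.

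The drugs were also taken apart. Within saline and within morphine 0 genes passed the threshold in limma, with 568 and 2858 at an unadjusted p of 0.05. Severity differed between the drugs in 0 genes (smallest adjusted p 0.959, with 727 at an unadjusted p of 0.05). For the lower lists the medians with saline and morphine were -0.13 and -0.14 (splicing), -0.30 and -0.40 (nuclear RNAs) and -0.22 and -0.24 (Dlk1 to Dio3). For the higher lists they were 0.059 and 0.14 (actin), 0.025 and 0.14 (mitochondrial ribosome) and 0.04 and 0.094 (oxidative phosphorylation). Over all genes they were 0.0076 and 0.063. Of the 36 splicing regulators 27 were lower with both drugs, and of the 24 actin genes 19 were higher with both.

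The untreated arrays were then placed beside the contrast. Limma called 0 genes between CC and mild arrays, between CC and severe arrays and between CC and all treated arrays, with 491, 804 and 370 at an unadjusted p of 0.05. Values against CC share arrays with the severity contrast and are given as descriptions. Among the 15 lower genes by p-value, which leave out small RNAs, the CC mean lay between the mild and severe means in all 15 and nearer to the mild mean in 14, the exception being Tbrg3. Among the 15 higher genes it lay between both in all 15 and nearer to the mild mean in 9. Kbtbd7, Rnpep, Msl3l2, Mllt1, Stard3 and Mpped2 were the 6 nearer to the severe mean. Over all genes the CC mean lay between the mild and severe means in 8142 of 19938. Both sets of 15 were picked for a clear gap between these means. A CC mean inside the gap was therefore likely beforehand and says little about untreated pups. Of the 82 lower genes without overlap the CC mean was nearer to the mild mean in 59 (72%), and of the 137 higher ones in 74 (54%), against 55.1% of all genes. Mir380 is among the lower genes with CC nearer to the severe mean, at 5.055 ± 0.263 (SD, n = 3).

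CC arrays differed among themselves in the lower genes. For Clk1 they were at 9.66, 9.33 and 9.33, for Malat1 at 11.51, 11.07 and 11.24 and for Eml5 at 8.48, 8.09 and 8.25. CC1 lay within the mild range or above it for these genes, and CC2 and CC3 below that range. These 3 genes do not speak for all: CC3 lay inside the mild range for Meg3 (12.05) and Snhg11 (9.06) and for the mean of the splicing (9.11), nuclear RNA (8.85) and Dlk1 to Dio3 (6.00) lists, where CC2 alone lay below it. CC1 is also the untreated array on which the striatum markers stand apart. The splicing list differed by a median of -0.03 between CC and mild arrays and 0.13 between CC and severe arrays, and the Dlk1 to Dio3 list by -0.05 and 0.23. The actin list differed by 0.038 and -0.058.

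**Figure D5:**
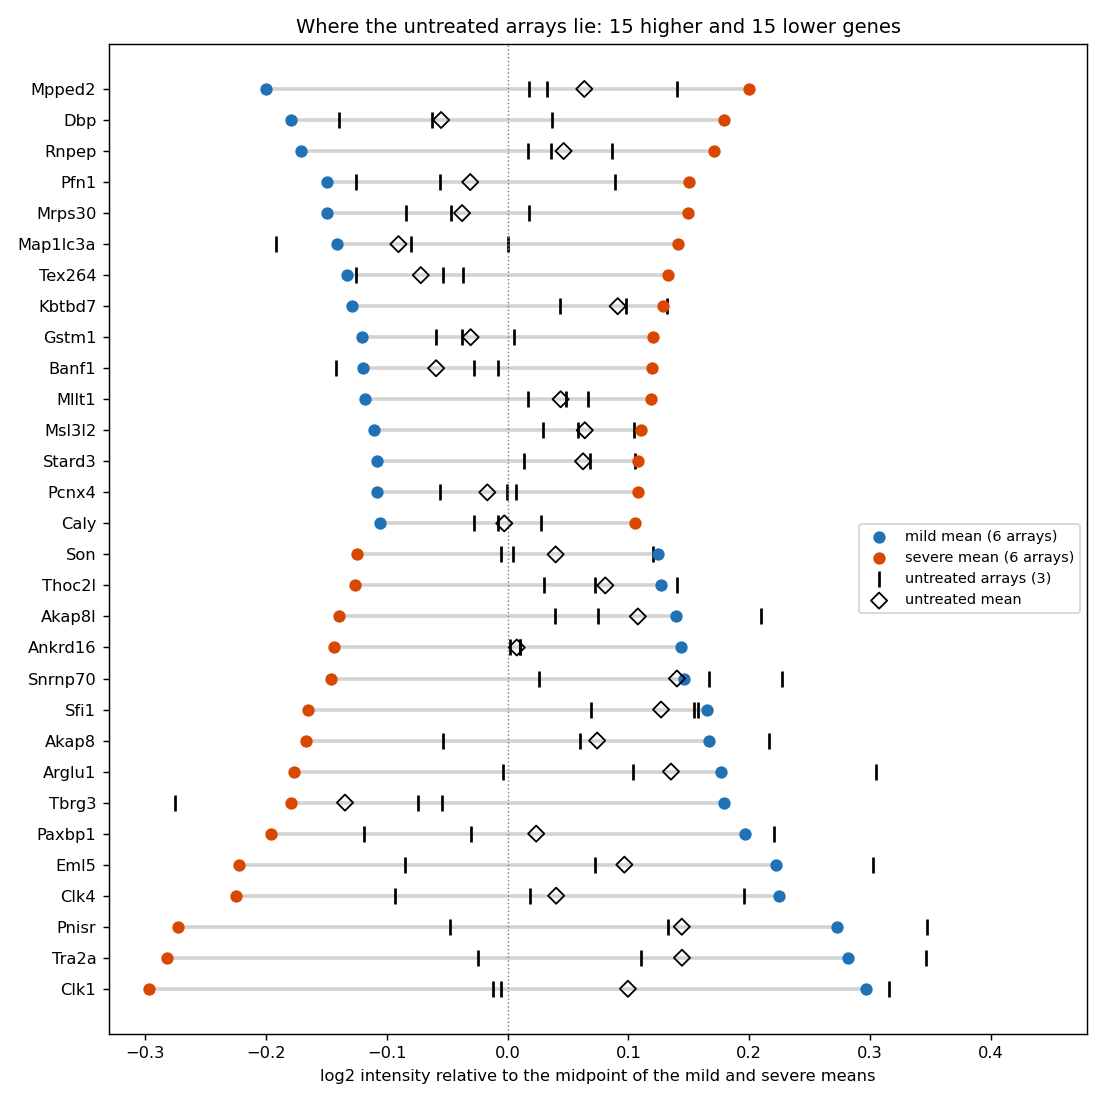
Mean log2 intensity of mild (blue) and severe (orange) arrays for the 15 higher and 15 lower genes with the smallest p-values, relative to their midpoint (x axis), with the 3 untreated arrays as ticks and their mean as a diamond. For the lower genes the diamond lies on the mild side of the midpoint in 14 of 15, and for the higher genes in 9 of 15.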

How the data were processed

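Total RNA of right hippocampi was read on single-colour Affymetrix arrays, 1 per sample. The authors deposited log2 intensities for 35557 probe sets, made with RMA per the submitters' processing notes; the software, its version and the build are not stated there. RMA is a method that corrects background, equalizes arrays and summarises probes, so fold changes are compressed for dim probe sets. The deposited values still did not share 1 distribution: array medians were 5.41 to 5.51 without SSM3, which was at 5.60. Of the probe sets 21789 had 1 symbol in the platform annotation, 1621 several and 12147 none; the brightest single-symbol probe set gave 19938 genes. No gene was filtered. Groups were taken from the treatment of each sample, and 0 columns were left out.

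A mean per group was fitted on all 15 arrays with limma 3.58.1 in R 4.3.3 (lmFit, eBayes; 10 residual and 4.61 prior degrees of freedom), two-sided, with Benjamini-Hochberg adjustment and a threshold of 0.05. The fit was tested on simulated data. The number of arrays limits the precision.

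The comparison, the 34 gene lists (967 of 1034 members measured) and the rules were chosen with earlier results of these data known. Lists are described by counts and medians, with no set test. Named were all called genes, the 15 higher and 15 lower genes with the smallest p-values, the 6 largest differences each way without overlap, and up to 4 members of a list by p-value. Predicted genes, receptors of smell and taste, and small RNAs were passed over, except where called or listed. Marker genes of a tissue or receptor system (Ttr, Prox1, Slc17a7, Nr3c1, Nr3c2, Crh, Oprm1, Kbtbd6) were added for their role, and Dlk1, Dio3 and Rtl1 for their place. Tug1, Pvt1 and Dleu2 complete a short list. Alternatives were other scalings, filters, probe sets, variance models and left-out arrays. MicroRNA sequences are from RefSeq (GRCm38.p6).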

Additional observations from a re-analysis of the deposited data

Results flagged for a closer look

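Levels were checked for an array far from the other 5 of its stress level in 146 groups of 6 arrays, for 39 named genes and 34 lists. Chance marks about 1 in 20 such groups. Among genes, MSM3 stood apart from the other mild arrays for Akap8 (9.06), Paxbp1 (8.08), Amy1 (7.54), Kcng1 (7.29), Crip2 (9.65) and Ctxn1 (9.84), high for the first 3 and low for the others. SSM3 was the highest severe array for Map1lc3a (9.25) and Crip2 (10.40).

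Among list means, MSM3 was low for hippocampal glutamatergic neurons (8.01), immediate early genes (6.56) and corticotropin and steroid receptor genes (6.76), and high for thalamus (7.80) and oligodendrocyte precursors (8.13). SSM1 was low for hippocampal glutamatergic neurons (8.43) and high for striatum (8.66), myelin (7.11), oligodendrocyte precursors (7.97), opioid genes (7.89) and ependyma (5.88). SSM3 was high for hypoxia (8.36) and heat shock genes (8.48), and MSM1 for the core spliceosome (8.15).

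Probe sets outside the gene analysis also differed with severity. Of the 12147 probe sets that are unnamed here, 47 passed the threshold when all probe sets were tested together, each lower after severe stress, and 119 lay below all mild arrays against 25 above. Further probe sets of Slc19a1, Kansl1, Eml5 and Dock6 passed as well (-0.46, -0.34, -0.51 and -0.38). They were singled out after their values were seen.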

How the results depend on the processing

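The number of called genes, 2 as reported, was 14 after quantile normalization (12 lower), 32 with each array centred (24 higher), 43 with array weights (31 lower) and 5 over all single-symbol probe sets. It was 1 each for brighter genes only, for the 12 stressed arrays only, with an intensity trend and with the SS number as a random effect. Chosen after seeing the data were all probe sets of the table (67 calls, 63 lower) and quantile normalization without SSM1 and MSM3 (1 call). Without SSM1 and MSM3 alone it was 2, and 1 gene passed within saline; within morphine 2 probe sets passed among all of the table. Leaving out each array in turn gave 1 to 17 calls (17 without SSS3, 5 without SSM3), 0 to 8 within morphine (8 without SSS1), and 0 to 1 for each comparison with CC (1 without CC3). No called direction reversed. The causes were not tested. No paired analysis was possible because the labels give no replicate number. The H numbers in the titles are not said to mark replicates, and SSS and MSS share none of them while SSM and MSM share 2. With 3 arrays a group, small differences cannot be resolved, and array values carry no count of molecules.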
